A study of Yucca flaccida with 12 samples.

Results

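A set of 116 genes had lower transcript levels in every variegated leaf library than in any unvariegated one. They were chosen by that difference: with CPM (counts scaled to a common library total), the highest value over the 6 variegated libraries was at most 0.5 times the lowest over the 6 unvariegated libraries, and that lowest value was at least 1 CPM. The 150 most abundant genes were left out by the rule, and 0 genes were lost by this. The 116 members were picked from 185746 genes, and 32022 genes reached the required level in unvariegated leaves, of which the members made up 0.362%. All 116 were abundant enough to enter the test across genes, in which 59225 genes took part.

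The plants were Yucca flaccida 'Golden Sword', an ornamental monocot, multiplied in vitro and left untreated, and the second youngest leaf was sampled. Polyadenylated RNA was sequenced from variegated centre (VC), variegated edge (VE), unvariegated centre (UC) and unvariegated edge (UE), with 3 libraries each, 12 in all. Variegated and unvariegated leaves carry the same cultivar name in the labels. Neither the colour of each zone nor the number of plants behind each group is given in the labels. The p-values therefore measure the spread between these 12 libraries, which may be technical.

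Variegated leaves carry zones of different colour, commonly because the plastids of one zone hold less chlorophyll or other pigment. Plastid proteins are encoded in both nucleus and plastid, and nuclear genes for photosynthesis are known in other plants to respond to the state of the plastids. The genes here are clusters of assembled transcripts whose identifiers are not paired with gene names in the files, so no function can be given to a member, and the labelled tissue was not checked against markers. Members are described by their level, length, zone pattern and place in the assembly, and 2 of them by identifier.

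Library totals lay between 13139086 and 20306020 estimated counts. The members took 0.0346% to 0.0998% of these in the variegated libraries, against 0.344% to 0.535% in the unvariegated ones. Their summed level was 346, 533 and 998 CPM in VC1, VC2 and VC3 and 417, 640 and 762 CPM in VE1, VE2 and VE3. It was 3969, 3487 and 3441 CPM in UC1, UC2 and UC3 and 5349, 4535 and 3861 CPM in UE1, UE2 and UE3. The phenotypes do not overlap, by the choice of members. In these leaf samples, fewer cells of a type and less RNA per cell cannot be told apart.

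**Figure D1:**
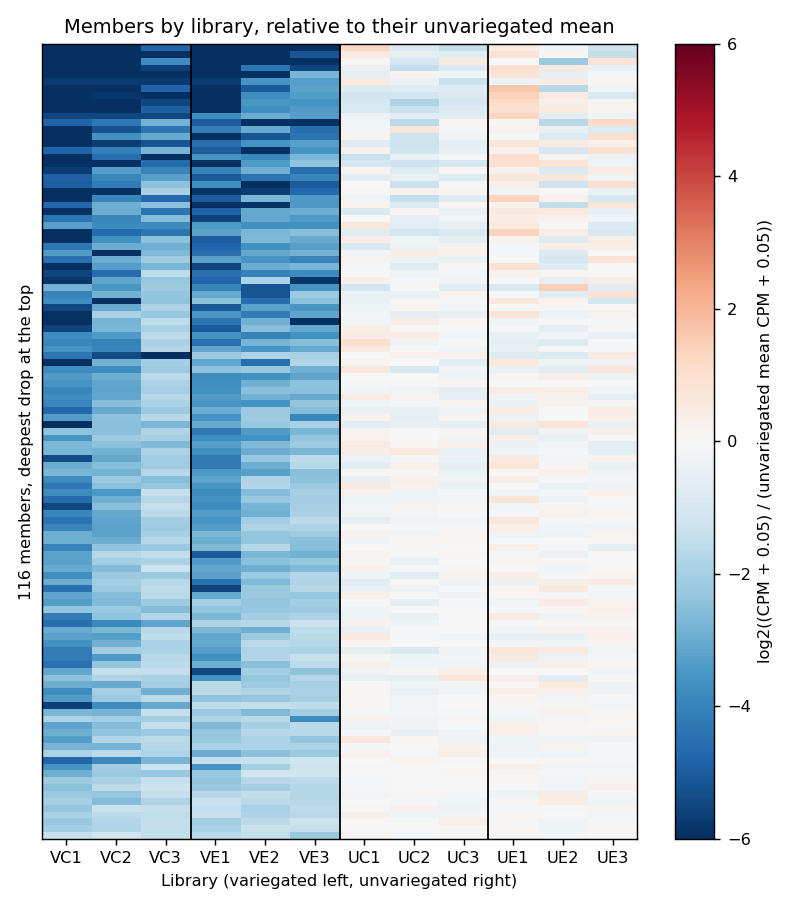
Level of each of the 116 members (rows, deepest drop at the top) in each of the 12 libraries (columns), as log2 of CPM plus 0.05 over the unvariegated mean CPM plus 0.05. The variegated columns on the left are blue in all rows by the choice of members, and VC1 and VE1 are the darkest of their groups in most rows.

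The size of the drop differed widely among members. The median member stood at 14.8% of its unvariegated mean CPM in variegated leaves, with quartiles at 8.67% and 19.8% and a range of 0.414% to 34.9%. Of the 116, 106 stood at or under 25%, 36 at or under 10%, 18 at or under 5% and 4 at or under 2%. None was at 0 in all 6 variegated libraries: 1 had at most 3 counts over them, and 32 had 0 counts in at least 1 of them. VC1 held 24 members at 0 counts, against 9, 5, 9, 7 and 3 in VC2, VC3, VE1, VE2 and VE3. The unvariegated libraries held 0 by the rule, which requires at least 1 CPM in each of them. A count of 0 still allows up to 3 counts, or 0.159 to 0.207 CPM in the variegated libraries, by counting error alone. In unvariegated leaves the members were of modest abundance, with a median of 9.32 CPM and a range of 1.48 to 502 CPM. The 10 most abundant members of each library held 52.0% to 63.4% of the members' summed CPM in variegated libraries and 59.4% to 68.6% in unvariegated ones, so the sums above follow few genes. The median over members was 0.521, 1.00 and 1.75 CPM in VC1, VC2 and VC3. In VE1, VE2 and VE3 it was 0.707, 1.39 and 1.54 CPM. It was 7.47 to 10.8 CPM in the unvariegated libraries, a split that the choice of members sets.

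Levels of different genes are compared per length, as FPKM (the authors' fragment count scaled by gene length and library total). The member with the highest unvariegated FPKM was Cluster-20123.20800, a short gene of 215 bases by its estimated effective length. Its FPKM was 4.51, 1.28 and 13.8 in VC1, VC2 and VC3 and 7.25, 7.14 and 27.3 in VE1, VE2 and VE3. In UC1, UC2 and UC3 it was 1269, 599 and 557, and in UE1, UE2 and UE3 it was 1736, 1061 and 359.9. The unvariegated libraries thus differed among themselves by several fold, and the lowest of them, UE3, was still far above the highest variegated one, VE3. Pooled, it had 228 counts over the variegated libraries and 19818 over the unvariegated ones, or 1.12% of the unvariegated level per count sequenced (exact 95% interval 0.98% to 1.28%, counting error only). That interval leaves out the spread between libraries and the choice of this member by the same contrast.

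Cluster-20123.94839 had the lowest ratio of all members, 0.0674 between its highest variegated and its lowest unvariegated CPM. It had 0, 0 and 2 counts in VC1, VC2 and VC3 and 0 in each VE library. The unvariegated libraries held 153, 32 and 32 counts in UC1, UC2 and UC3 and 96, 59 and 32 in UE1, UE2 and UE3. The pooled 2 counts against 404 give 0.483% of the unvariegated level, with an exact 95% counting interval of 0.0583% to 1.75%. Neither the spread between libraries nor the choice by lowest ratio is in that interval. Both variegated zones were at or under the floor of 3 counts, so no zone fold is given for them.

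Other abundant members kept more of their transcript. The second in unvariegated FPKM had 76.4, 113 and 221 FPKM in VC1, VC2 and VC3 and 82.3, 147 and 143 FPKM in VE1, VE2 and VE3. Its unvariegated values were 813, 668 and 577 FPKM in UC1, UC2 and UC3 and 743, 641 and 619.5 FPKM in UE1, UE2 and UE3. By mean CPM this member stood at 19.1% of its unvariegated level, and its zones overlap within both phenotypes. The third had 60.8, 82.7 and 213 FPKM in VC1, VC2 and VC3 and 47.9, 50.8 and 71.2 FPKM in VE1, VE2 and VE3, against 621, 601 and 508 FPKM in UC1, UC2 and UC3 and 712, 838 and 509.6 FPKM in UE1, UE2 and UE3. In the centre it stood at 20.1% of UC and at the edge at 8.24% of UE by mean CPM. VC3 was the highest variegated library of both.

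**Figure D2:**
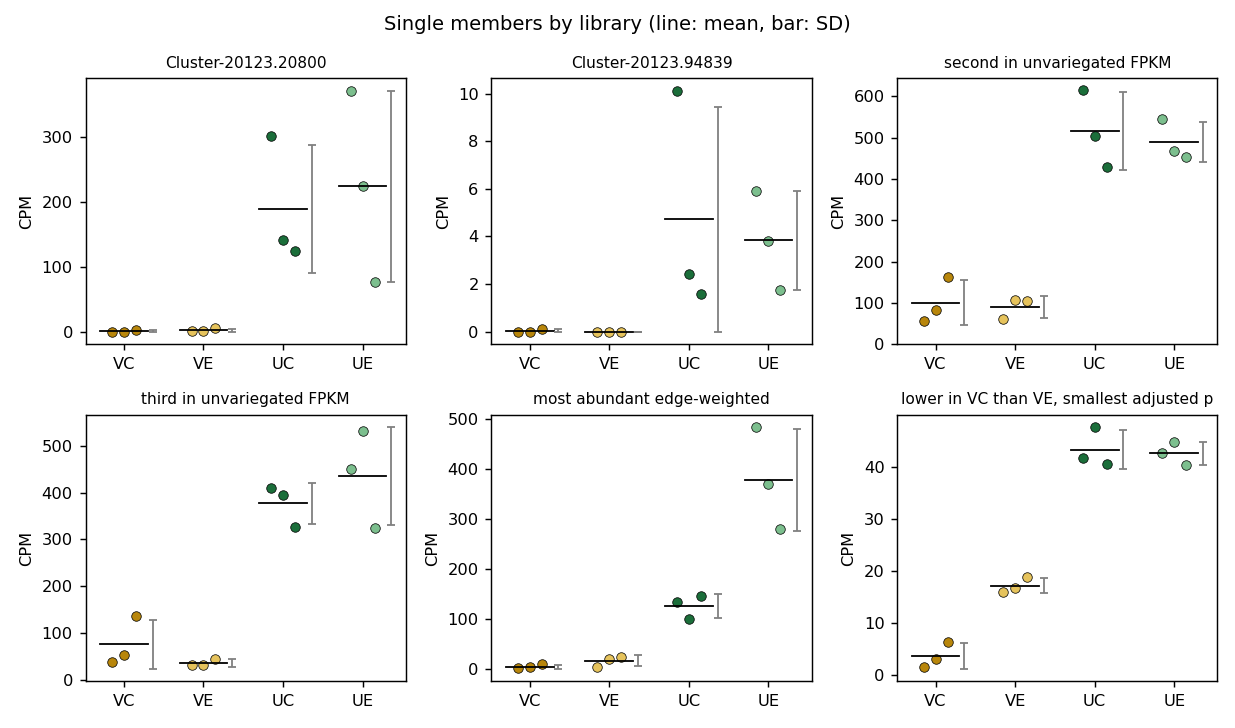
CPM of 6 members by library, with VC and VE to the left of UC and UE in each panel, the group mean as a line and the SD as a grey bar (n = 3). The upper panels show Cluster-20123.20800, Cluster-20123.94839 and the second member in unvariegated FPKM; the lower panels show the third, the most abundant member that was higher at the unvariegated edge, and the member with the smallest adjusted p in VC against VE, whose VC values of up to 6.27 CPM lie below its VE values of 15.9 to 18.8 CPM.

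Single libraries decided who counted as a member at the upper margin. VC3 was the highest variegated library for 56 of the 116 members, VE3 for 29, VE2 for 19, VC2 for 6, VE1 for 5 and VC1 for 1. Without VC3 the same rule picked 273 genes, and without any other single library 117 to 169. Leaving out a library can only loosen the ratio. The 3 members nearest the ratio had 0.499, 0.492 and 0.488, and the 3 genes just beyond it 0.501, 0.505 and 0.506. The lowest unvariegated levels among members were 1.03, 1.03 and 1.10 CPM, and 101 further genes met the ratio with a lowest level under 1 CPM, the nearest at 0.992, 0.989 and 0.987 CPM. With CPM on TMM-scaled library sizes (a scaling that aligns the bulk of genes), 93 genes were picked, of which 77 were among the 116. TMM factors were 0.807 to 0.878 in VE and 0.958 to 1.16 in VC, against 0.981 to 1.14 in the unvariegated libraries.

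Within the variegated groups the members moved together between libraries. VC1 was the lowest of the 3 VC libraries for 95 of 116 members (81.9%), against 51.0% of all genes tested, and VC3 was the highest for 93 (80.2%), against 51.0%. VE1 was the lowest VE library for 83 members (71.6%), against 41.9% of all genes, and VE3 the highest for 67 (57.8%), against 39.6%. With TMM-scaled values VC1 was lowest for 91 members, against 39.4% of all genes, and VE1 for 80, against 36.4%. The rule bounds only the highest variegated value, so a library that is high for many genes is limited by it and a low one is not.

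The genes raised throughout variegated leaves, 115 by the mirror of the same rule, ran the other way in the same libraries. Their summed level was 6629, 5791 and 3274 CPM in VC1, VC2 and VC3, 8701, 4073 and 3811 CPM in VE1, VE2 and VE3, and 604 to 708 CPM in the unvariegated libraries. Replicate 1 of each zone thus had the lowest sum of lowered and the highest sum of raised genes among the variegated libraries of that zone. Replicate 3 of each zone had the highest sum of lowered and the lowest sum of raised genes. With TMM-scaled values the sums of the lowered genes were 361, 507 and 856 CPM in VC1, VC2 and VC3 and 517, 766 and 868 CPM in VE1, VE2 and VE3, in the same order within each zone. Whether depth, scaling or the state of the sampled leaves had a part in this was not tested.

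**Figure D3:**
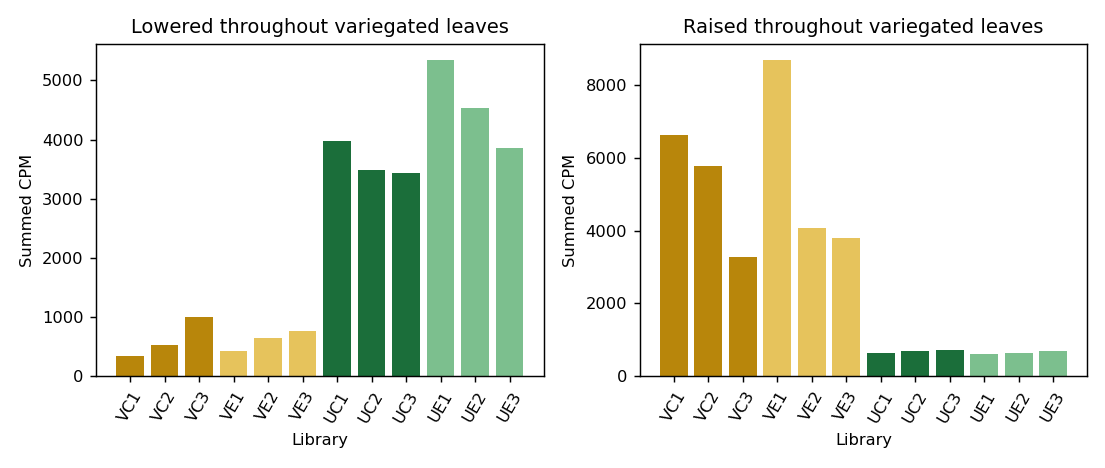
Summed CPM per library (bars from 0) of the 116 genes lowered and the 115 genes raised throughout variegated leaves, with variegated libraries on the left of each panel. In the left panel the variegated bars lie between 346 and 998 CPM, with VC3 highest, and in the right panel the same libraries lie between 3274 and 8701 CPM, with VC3 lowest.

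The contrast of centre with edge inside each phenotype was not a criterion of the rule, and it was tested with edgeR's quasi-likelihood test across all 59225 genes, with Benjamini-Hochberg adjustment. The rule did limit the highest of the VC and VE values and the lowest of the UC and UE values, on library totals. The members' zone values are therefore not independent of it, and their medians and signs beside those of all genes are a description only. In VC against VE 4 of the 116 members fell and 0 rose. Of all genes tested 0.571% fell and 0.954% changed in either direction. At an unadjusted p under 0.05 there were 28 members (24.1%), against 12.4% of all genes. DESeq2 called 12 members, all lower in VC, against 3.81% of all genes in its own fit. With library totals only, edgeR called 4 members, all lower in VC, against 3.52% of all genes. The members leaned toward lower values in the centre: 81 had a negative log2 fold change (69.8%, against 49.8% of all genes), and their median was -0.42, against 0.00 for all genes. Scaled by library totals alone, the median over all genes was 0.33, the members' median was -0.08 and 62 members were negative, against 26.3% of all genes. The median was -0.10 without VC1, -0.22 without VE3, -0.63 without VE1 and -0.91 without VC3, so its size rested on single libraries while its sign was the same.

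On the raw values, all 3 VC libraries lay below all 3 VE libraries for 21 members on TMM-scaled CPM, against 10.1% of all genes, and for 10 members on library totals, against 3.62%. The opposite order was seen in 0 members, against 9.49%, and on library totals in 5, against 22.9%.

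Of the 4 members that fell, 3 have near-consecutive identifiers and the same profile, so they may share reads and are uncertain as separate genes. Summed over these 3, the level was 2.70, 7.06 and 13.0 CPM in VC1, VC2 and VC3 and 35.1, 37.5 and 39.0 CPM in VE1, VE2 and VE3. It was 102, 98.1 and 97.9 CPM in UC1, UC2 and UC3 and 102, 108 and 90.6 CPM in UE1, UE2 and UE3. The unvariegated zones overlap, the variegated edge lies below them, and the variegated centre lies below the edge. Their log2 fold changes in VC against VE were -2.60 (SE 0.33, adjusted p = 0.00604), -2.62 (SE 0.32, adjusted p = 0.00499) and -2.69 (SE 0.39, adjusted p = 0.0135) in edgeR's test. In UC against UE they were -0.03, -0.09 and -0.17, each with an adjusted p of 1 in the same edgeR fit.

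The fourth member that fell was scarce. It had 0.195, 0.0689 and 0 CPM in VC1, VC2 and VC3 and 1.00, 1.28 and 1.20 CPM in VE1, VE2 and VE3. Its unvariegated values were 4.79, 5.76 and 5.84 CPM in UC1, UC2 and UC3 and 2.88, 2.69 and 7.05 CPM in UE1, UE2 and UE3. The log2 fold change in VC against VE was -3.99 (SE 0.69, adjusted p = 0.0256 in edgeR's test), and it rests on 4 counts over the VC libraries. All 4 calls were lost when only the 6 variegated libraries were fitted, where 82 members were abundant enough to be tested, with adjusted p of 0.0607 to 0.118 in edgeR. The third call was also lost without VE2 or VC2 (adjusted p = 0.0553 and 0.0931), with no filter on low counts (0.0553) and without VE1 and UE1 together (0.0693) and the fourth without VE1, VE2, VE3, VC2 or VC3 (adjusted p = 0.061, 0.0824, 0.0644, 0.14 and 0.0537), without VE1 and UE1 together (0.088) and in limma on log2 of FPKM plus 1 (0.171). Over all alternatives the adjusted p of these 2 reached 0.0931 and 0.171.

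The 2 members with the most negative fitted change in VC against VE did not pass the test, with adjusted p of 0.0972 and 0.221 in edgeR. Both had 0 counts over the VC libraries, against 9 and 7 over the VE libraries. With VC set at a floor of 3 counts over the group, its level was 2.80-fold and 2.18-fold lower than in VE. The counting error of the VE counts is not included, so these folds are not lower bounds.

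In unvariegated leaves 0 members passed the test of UC against UE in edgeR, and 0.00169% of all genes did. At an unadjusted p under 0.05 there were 9 members (7.76%), against 5.22% of all genes, and DESeq2 called 1 member, with a log2 fold change of -1.46 (adjusted p = 0.0184), against 0.191% of all genes in its own fit. Here too the members leaned toward the edge, with 90 negative log2 fold changes (77.6%, against 50.2% of all genes) and a median of -0.27, against 0.00. With library totals only, the median was -0.15 and all genes stood at 0.10. Without UE1 it was -0.17, with 80 negative. By sign, 68 members were lower in the centre in both phenotypes, 13 in variegated leaves alone, 22 in unvariegated leaves alone and 13 in neither.

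All 3 UC libraries lay below all 3 UE libraries for 15 members on TMM-scaled CPM, against 5.06% of all genes, and for 11 on library totals, against 2.7%. The opposite order was seen in 1 member, against 5.94%, and on library totals in 4, against 8.31%. UE1 was the highest unvariegated library for 41 of the 116 members. For the 22 members with an estimated effective length under 300 bases the median change in UC against UE was 0.00 (log2), and for the 94 longer ones -0.31. In VC against VE these medians were -0.57 and -0.39.

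**Figure D4:**
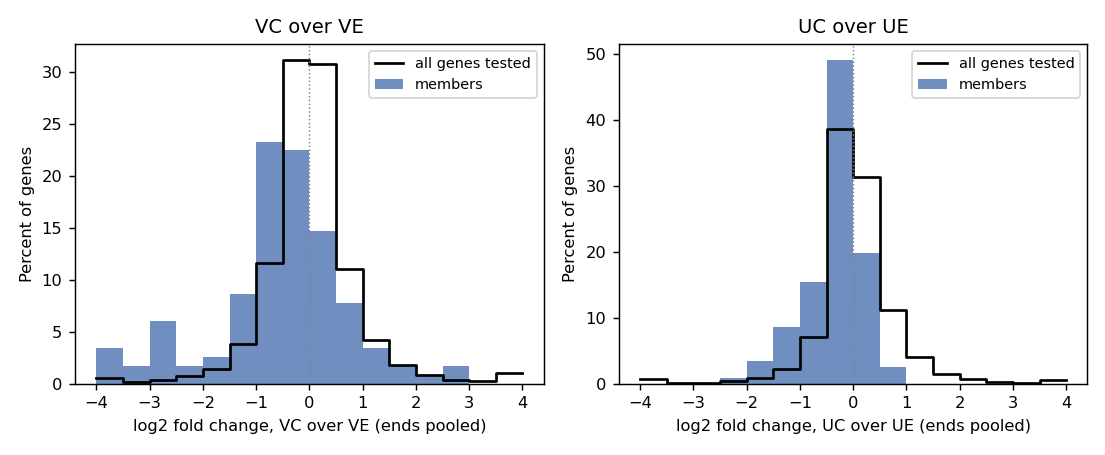
Distribution of the log2 fold change of centre over edge in variegated leaves (left, VC over VE) and unvariegated leaves (right, UC over UE), as the percent of the 116 members (bars) and of all 59225 genes tested (line), with values beyond 4 pooled in the end bins. The members' bars lie to the left of the line in both panels, with medians of -0.42 and -0.27.

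A group of 15 members, picked after their values were seen, had at least a 2-fold lower fitted level in UC than in UE. They hold 3 pairs with near-consecutive identifiers, which may share reads. The pair that holds the most abundant of the 15 had whole counts in all 12 libraries, so no shared reads show there. The most abundant of them had 0.195, 2.41 and 8.40 CPM in VC1, VC2 and VC3 and 3.96, 19.4 and 23.9 CPM in VE1, VE2 and VE3. It had 133, 98.9 and 145 CPM in UC1, UC2 and UC3 and 483, 369 and 279 CPM in UE1, UE2 and UE3. The unvariegated edge lies above the unvariegated centre with no overlap, while VE1 lies among the VC values. The next had 0.651, 2.34 and 5.56 CPM in VC1, VC2 and VC3 and 3.52, 21.8 and 20.4 CPM in VE1, VE2 and VE3, against 116, 68.2 and 122 CPM in UC1, UC2 and UC3 and 559, 318 and 279 CPM in UE1, UE2 and UE3. Both have the same order of groups. Their log2 fold changes were -1.70 (SE 0.73) and -2.03 (SE 0.64) in UC against UE, with adjusted p of 0.953 and 0.871 in edgeR, so the zone difference did not pass the test. In VC against VE they were -2.45 (SE 0.80) and -2.75 (SE 0.71), with adjusted p of 0.214 and 0.112 in edgeR.

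These 15 members dropped further than most, to a median of 4.92% of their unvariegated CPM. In VC against VE 13 of the 15 had a negative log2 fold change, with a median of -2.45. The other 101 members had a median of -0.32, with 68 negative. Among the 2614 tested genes outside the set that had a UC against UE value as low, the median in VC against VE was 0.01 and 49.4% were negative. Those genes were under no limit on their variegated values, as the members were, so no test is drawn from this.

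Whether the drop itself differed between centre and edge was tested as the interaction, the zone difference in variegated leaves minus that in unvariegated leaves. The rule required a drop in both zones, so a gene that dropped in a single zone could not be a member. The interaction is therefore not independent of the rule, and the members' calls and median beside those of all genes are a description only. In edgeR 0 of 116 members passed, against 0.0962% of all genes, with a smallest adjusted p of 0.0634. At an unadjusted p under 0.05 there were 11 members (9.48%), against 8.91% of all genes. DESeq2 called 4 members, against 1.39% of all genes in its own fit. The 3 members with near-consecutive identifiers had interactions of -2.57 (SE 0.43), -2.53 (SE 0.43) and -2.52 (SE 0.52) on the log2 scale, with adjusted p of 0.0634, 0.0634 and 0.129 in edgeR. For the whole set the median interaction was -0.16, against -0.01 for all genes, and it was 0.15 without VC1, -0.61 without VC3 and 0.09 with library totals only, where all genes stood at 0.21.

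The median member stood at 15.4% of the unvariegated level in the centre and 13.7% at the edge, by group means of CPM. In fitted log2 fold changes the medians were -2.65 for VC against UC and -2.59 for VE against UE, with ranges of -8.41 to -1.23 and -8.99 to -1.04. These values chose the members and carry no test.

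**Figure D5:**
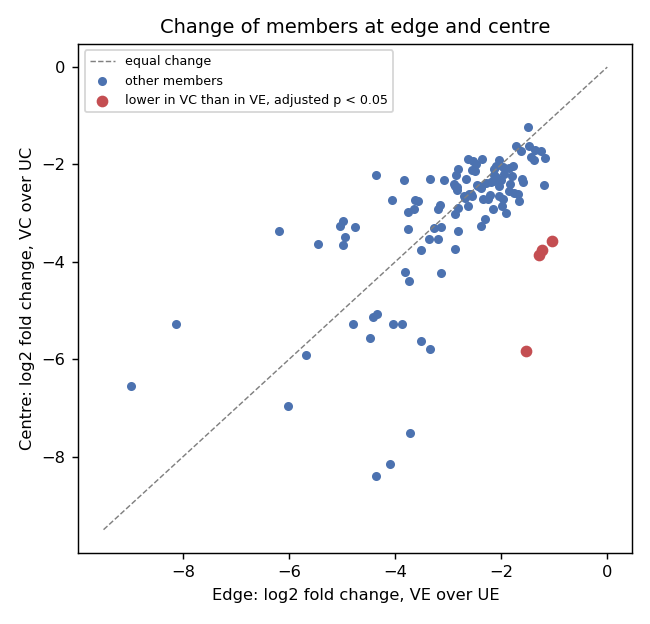
Fitted log2 fold change of each of the 116 members at the centre (VC over UC, vertical) against the edge (VE over UE, horizontal), with equal change as a dashed line. Most points lie near the line, and the 4 members that fell in VC against VE (red) lie below it, with edge changes of -1.04 to -1.54 and centre changes of -3.57 to -5.83.

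The members were not spread over the assembly like genes of the same level. Of the 116, 92 belonged to the largest assembly group, read from the first number of the identifier, and 24 to 22 other groups of 1 to 7 genes. The share outside the largest group was 20.7%, against 7.40% of the 32022 genes with the same minimum level in unvariegated leaves and 10.4% of the genes raised throughout. The 24 were of low abundance, with a median of 6.74 CPM in unvariegated leaves, and held 4.58% of the members' unvariegated CPM. They dropped to a median of 10.5%, and the 92 to 16.7%.

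Members were also short. Their median estimated effective length was 652 bases, against 1073 bases for genes of the same minimum level and 722 bases for the raised genes. Under 300 bases there were 22 members (19.0%), against 9.79% and 13.0% in those lists. Counts that were not whole in at least 1 library, which mark reads shared between transcripts, were found for 57.8% of members, against 74.1% of genes of the same minimum level. The drop was alike by length, with medians of 15.8% of the unvariegated level under 300 bases and 14.7% above. These are descriptions and no test was made of them.

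Some members lay next to each other in the assembly. Taking identifiers of the same group within 5 of each other, 30 members fell into 13 runs, 11 of 2 members, 1 of 3 and 1 of 5, so the 116 members form 99 separate units. The run of 5 was the longest. Its summed level was 15.1, 40.6 and 86.5 CPM in VC1, VC2 and VC3 and 28.1, 77.1 and 99.99 CPM in VE1, VE2 and VE3. It was 254, 298 and 303 CPM in UC1, UC2 and UC3 and 544, 304 and 332 CPM in UE1, UE2 and UE3. All 5 stood between 15.8% and 17.4% of their unvariegated level, with estimated effective lengths of 45 to 1817 bases. Members of a run may be pieces or alleles of one gene that share reads, and no sequences were used here to tell them apart.

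Genes next to a member in the assembly, and not members themselves, were also described. Of the 85 tested genes whose identifier was directly next to a member's, 40 (47.1%) had a log2 fold change of -1 or lower in VC against UC, against 12.8% of all tested genes outside the set. At the edge 34 of them (40.0%) were as low in VE against UE, against 11.3%. Increases of 1 or more were found in 3 (3.53%) in the centre, against 9.58%, and in 8 (9.41%) at the edge, against 10.8%. None of the direct neighbours was among the 115 genes raised throughout variegated leaves. That set is so small beside the 59225 genes tested that this says nothing about the neighbours. The median over these 85 was -0.84 in the centre and -0.32 at the edge, so most were not as low, and no test was made.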

How the data were processed

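The deposited values are of 2 kinds, from the authors: expected counts, and FPKM (those counts scaled by gene length and library total), both for 185746 transcript clusters in 12 libraries; CASAVA 1.8, RSEM and Bowtie2 are named in the submitters' processing notes, and the assembler, clustering and annotation are not given in the sources used here. In 21.3% of entries the expected count had a fraction, and all were rounded for the tests. Per the labels' protocols RNA was selected with oligo(dT), and no strand-marking step is described. The members and lists were chosen with earlier results of these data known.

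Levels are CPM from column sums unless TMM is named. Genes kept by filterByExpr (minimum count 10, total 15) were tested with edgeR 4.0.16 in R 4.3.3 (TMM, robust glmQLFit, glmQLFTest, 12 libraries, 4 group means), with a Benjamini-Hochberg adjusted p under 0.05 over all genes as the threshold. Standard errors are the absolute log2 fold change over the square root of F. Alternatives used DESeq2 1.42.0, limma 3.58.1 on log2 of FPKM plus 1 or 0.1, other scalings and filters, and left-out libraries. Effective length was estimated from deposited expected counts over FPKM, as the median over libraries with at least 20 counts and an FPKM above 1. Lists with no test are described by counts and medians.

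The rule for named members took the 2 lowest ratios, the 2 highest log2 fold changes in VC against VE among members past the threshold, and, by rank alone, the 3 highest in FPKM, the 2 lowest in VC against VE and those nearest the limits. All members past the threshold in VC against VE were lower there, so their identifiers were not printed and they are given by rank. No identifier is paired with a gene name.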

Additional observations from a re-analysis of the deposited data

How the results depend on the processing

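The number of members, 116, was 93 to 140 under the other scalings and level limits and 15 with a ratio of at most 0.25, and 117 to 273 with a library left out (145 without VE1 and UE1 together, chosen after seeing the data). Calls in VC against VE, 4, were 7 with no filter, 12 in DESeq2, 0 with only the 6 libraries compared and 2 to 4 with a library left out. They were 6 with the 1 CPM filter, 5 in limma on log2 of FPKM plus 0.1, and 4 in limma on log2 of FPKM plus 1. With library totals only they were again 4. Of all genes 0.954% were called, against 0.533% with no filter, 1.38% with the 1 CPM filter and 3.81% in DESeq2. Limma called 2.94% of all genes with FPKM plus 0.1 and 3.03% with FPKM plus 1, and library totals gave 3.52%. The share was 0.464% with the 6 libraries, and 0.131% and 0.167% without VC2 and VE2, where 2 members were called. Calls in UC against UE, 0, were 1 in DESeq2 (0.191% of all genes), and 0 in every other alternative run. Interaction calls, 0, were 3 with no filter (0.178% of all genes) and 4 in DESeq2 (1.39%, against 0.0962% in edgeR). They were 2 without VC1 (0.067% of all genes), 1 without VC3 (0.0521%) and 0 without any other single library. The cause of these shifts was not tested. The median change in variegated against unvariegated leaves over both zones, -2.59, was -2.21 to -2.85 and moved by less than the spread between libraries, 0.44, in every alternative. This contrast chose the members and their list was held fixed, so a lasting drop was set in advance and is no support. The change of Cluster-20123.94839 in UC against UE, 0.14, turned to -0.17 and -0.18 in log2 FPKM plus 1 and plus 0.1, to -0.086 with the replicate block, and ranged from -1.06 to 0.60 with a library left out. That of Cluster-20123.20800, -0.40, ranged from -0.88 to 0.16 with a library left out and was 0.17 without VE1 and UE1. Deviations from group means correlated at 0.107, 0.0169 and 0.13 between same-numbered VC and VE libraries, and at -0.13 to 0.0161 between different-numbered ones. For UC and UE the same-numbered values were 0.104, 0.0696 and -0.0465, and the different-numbered ones -0.151 to 0.0922. The main fit did not take the numbers as pairs, and whether same-numbered zones share a leaf or plant is not known. The replicate block gave 4 calls in VC against VE (1.09% of all genes) and 0 in the other comparisons, as without it. That block gives same-numbered libraries of both phenotypes a shared effect, so it does not test pairs of zones within a phenotype. Where both variegated zones of a member held 0 to 3 counts, no zone difference can be read from them. The fourth member called in VC against VE had few counts in VC alone, with 3, 1 and 0 in VC1, VC2 and VC3.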
